A study of Mus musculus with 6 samples.

Results

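The genes described here encode the non-collagen part of the extracellular matrix: laminins and their basement membrane partners, adhesive glycoproteins, proteoglycans, elastic fibre proteins and the lysyl oxidases that cross-link fibres. They are a list of 50 gene symbols grouped by known function, drawn up with earlier results of these data known. Of these, 49 were matched by symbol to a row of the deposited table among 24675 genes. Fbn1 was not analysed here. The matrix genes were compared between tissue above and tissue below the dorsal aorta of the mouse embryo, on 3 dorsal and 3 ventral Affymetrix mouse Gene 2.0 ST arrays.

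All samples came from untreated C57Bl/6 embryos at embryonic day 10.5, and no genetic alteration is named in the labels. Frozen sections of 20 µm were stained and dissected with a laser, which frees a small area of a section under the microscope. The dorsal sample was the strip between notochord and aortic roof, and the ventral sample was the tissue beneath the vessel. Dorsal and ventral pieces were taken from the same embryos, the arrays are numbered 1 to 3 in each region, and no source used here gives the number of embryos behind an array. Each sample entered amplification with 200 to 1000 pg of RNA. The pieces were cut by position, so each holds several cell types, and fewer cells of a type cannot be told apart from less RNA per cell.

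Laminins are trimers of an alpha, a beta and a gamma chain that polymerise into the basement membrane, where nidogens, perlecan and agrin are bound to them. Fibronectin, tenascin and the matricellular proteins fill the mesenchyme between basement membranes, and glypicans hold heparan sulphate chains at the cell surface, where these bind growth factors of the FGF, BMP, Wnt and hedgehog families. Elastic fibres are built from elastin on microfibrils and are stabilised by lysyl oxidases. The region beneath the aorta is of interest because the first haematopoietic stem cells emerge from the floor of the vessel.

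Signals of the matrix genes were low. Values are log2 RMA signals, so a difference of 1 is a doubling, and signals of different genes depend on their probes and do not rank transcript amounts. The mean over the 6 arrays ran from 2.22 for Ogn to 5.04 for Vcan, with a median of 3.27 over the matrix genes against 3.24 over all genes tested. Only Vcan had a mean above 5, a limit that 4.49% of all genes exceeded. As a description of how far low signals can be read, 1365 olfactory and vomeronasal receptor genes, which are not known to act in this tissue, had a median of 2.59 and a 95th percentile of 4.66. Vcan and Gpc3 lay above that percentile, as did 7.03% of all genes, and 47 of the 49 lay above the receptor median, as did 81.8% of all genes. Near the lower end of the signal range a log2 difference can understate a difference in transcript level.

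**Figure D1:**
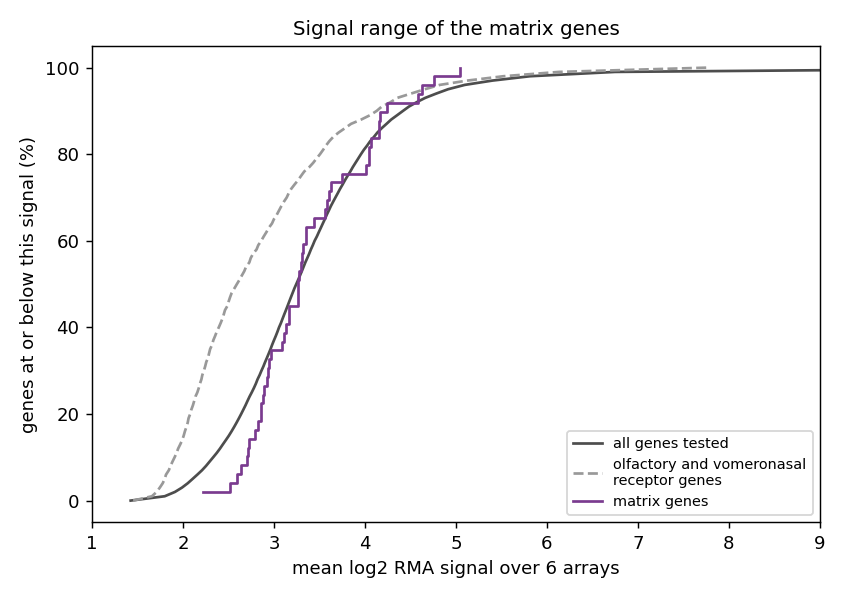
Cumulative share of genes (%) against mean log2 RMA signal over the 6 arrays, for the 49 matrix genes (stepped line), all genes tested (solid grey) and 1365 olfactory and vomeronasal receptor genes (dashed), with the signal axis drawn from 1 to 9. The matrix genes follow the curve of all genes near its median of 3.24 and end at 5.04.

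No matrix gene separated ventral from dorsal tissue past an adjusted p of 0.05 in limma with the replicate number as a block. Of all genes 0% passed the same threshold, and the adjusted p of the matrix genes lay between 0.437 and 0.999. At an unadjusted p under 0.05, 3 of 49 passed, all of them dorsal-higher (Gpc4, Sparcl1 and Ogn); with the arrays centred on their medians the 3 were Gpc4, Sparcl1 and the ventral-higher Gpc3. This was 6.12% of the matrix genes against 10.2% of all genes, and in the dorsal direction 6.12% against 5.9%. Without the block 4 of 49 passed, 8.16% against 11.2% of all genes. On the deposited scale, with or without the block, none of the matrix genes was ventral-higher at that level, against, with the block, 4.32% of all genes. The dorsal and ventral arrays did not overlap in 7 matrix genes, or 14.3%, against 18.7% of all genes: 5 were higher in every dorsal array (background 12%) and 2 in every ventral array (background 6.74%). These shares were near or below the background. The median log2 fold change, ventral minus dorsal, was -0.0048 over the matrix genes and -0.06 over all genes, with 23 values above 0 and 26 below; of all genes 42% were above 0 and 58% below.

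The intervals of most matrix genes excluded a doubling of the signal, which does not bound the difference in transcript level where signals are near background. The 95% interval lay inside -1 to 1 on the log2 scale for 42 of the 49 genes, or 85.7%, against 80.1% of all genes. The half-width of the interval had a median of 0.49 and reached 1.12 for Loxl2. For 1 gene at a time, an exact two-sided permutation of 3 against 3 arrays reaches a p of 0.1 at best, so the gene tests borrow their spread from all genes through limma.

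**Figure D2:**
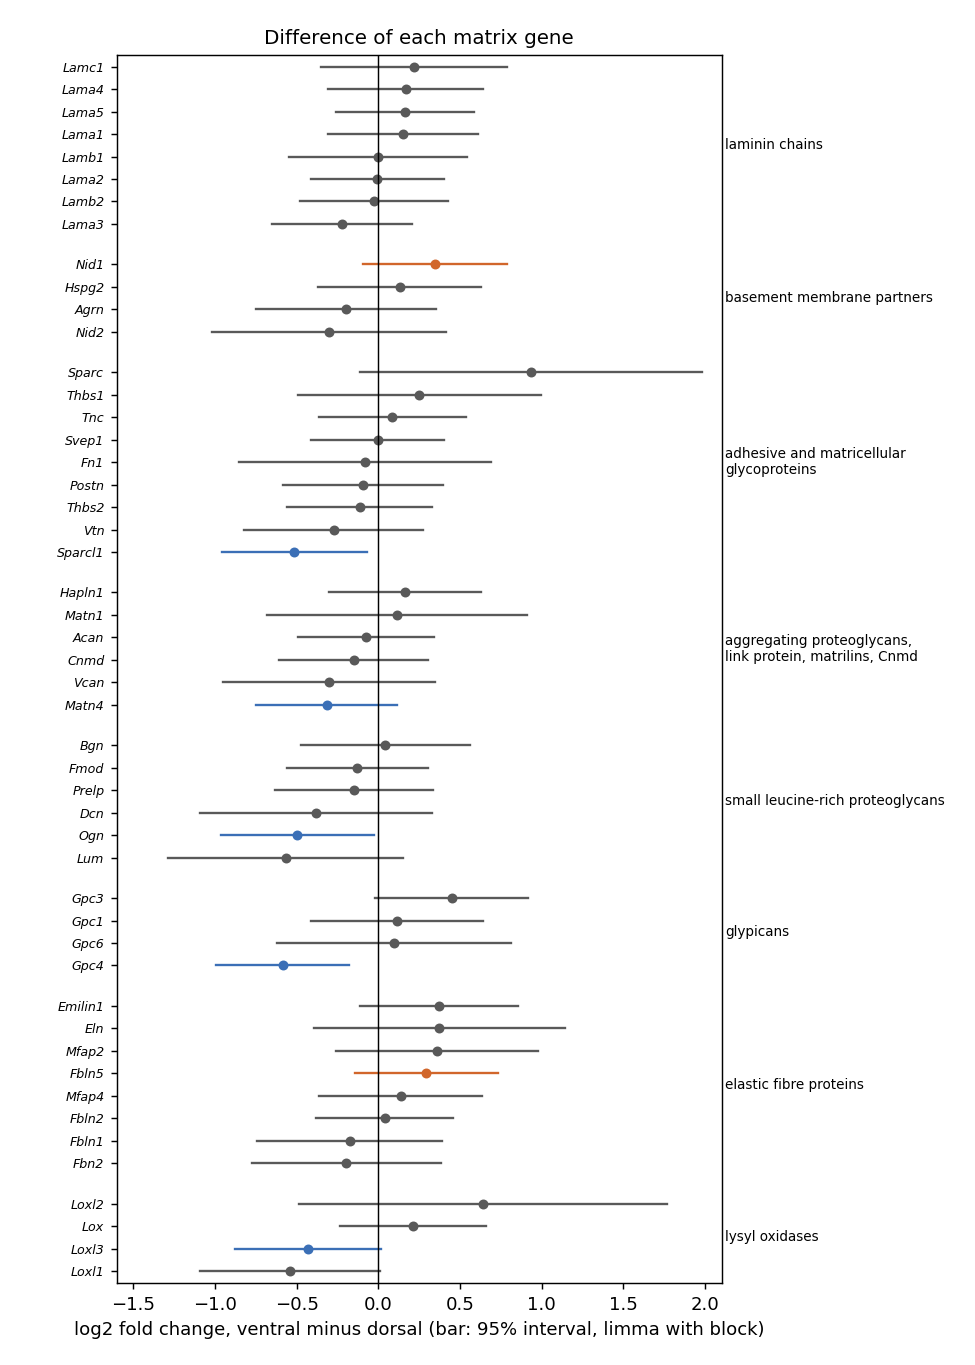
Log2 fold change, ventral minus dorsal, of the 49 matrix genes grouped by role, with the 95% interval from limma with the replicate block. Blue marks genes higher in every dorsal array, orange genes higher in every ventral array and grey genes whose arrays overlap; the intervals of Gpc4, Sparcl1 and Ogn exclude 0.

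Glypicans gave the clearest dorsal-higher matrix gene. Gpc4, a heparan sulphate proteoglycan of the cell surface, was at 3.44, 3.25 and 3.69 in dorsal arrays 1, 2 and 3 and at 2.88, 2.68 and 3.07 in the ventral arrays. Every dorsal array was above every ventral array, and the dorsal arrays were 1.50-fold higher on average. The log2 fold change was -0.59 ± 0.16 (SE), with a 95% interval from -0.99 to -0.18 and an adjusted p of 0.437 in limma. Gpc3, the glypican lost in an overgrowth syndrome, had the opposite sign, with 4.42, 4.89 and 4.29 in dorsal and 4.95, 5.56 and 4.43 in ventral arrays. The ventral value was the higher one in all 3 pairs of equal number, an order that 13.3% of all genes had in the ventral and 21.8% in the dorsal direction, but the groups overlapped and the interval of the difference, -0.02 to 0.92, included 0. Without ventral array 2 the log2 fold change of Gpc3 was 0.16 in place of 0.45. Gpc1 and Gpc6 had log2 fold changes of 0.11 and 0.10. Gpc6 was at 4.0, 2.61 and 3.31 in the dorsal arrays and within 3.35 to 3.43 in the ventral arrays, so its spread was on the dorsal side.

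The stretches before the start of Gpc4, Ogn and Nid1 are shown because these are the genes with 1 promoter entry among the 7 whose dorsal and ventral arrays did not overlap: Gpc4 and Ogn were dorsal-higher and Nid1 ventral-higher. Each covers the 250 bases before the RefSeq start on build GRCm38.p6, written 5′ to 3′ on the strand of the gene, at chrX:52164924-52165173 (minus strand), chr13:49607765-49608014 (plus strand) and chr13:13437352-13437601 (plus strand). Capitals mark matches on either strand to the GC box GGGCGG, the CCAAT box CCAAT, the TATA box TATAAA and the E-box CANNTG.
Gpc4: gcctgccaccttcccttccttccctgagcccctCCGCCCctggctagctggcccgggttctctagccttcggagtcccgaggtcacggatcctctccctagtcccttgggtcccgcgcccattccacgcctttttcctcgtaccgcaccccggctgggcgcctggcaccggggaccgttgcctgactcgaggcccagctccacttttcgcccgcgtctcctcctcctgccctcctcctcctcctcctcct
Ogn: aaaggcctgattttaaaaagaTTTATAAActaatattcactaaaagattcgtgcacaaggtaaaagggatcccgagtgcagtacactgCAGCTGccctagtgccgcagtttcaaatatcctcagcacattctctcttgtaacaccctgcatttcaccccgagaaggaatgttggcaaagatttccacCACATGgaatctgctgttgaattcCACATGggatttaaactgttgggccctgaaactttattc
Nid1: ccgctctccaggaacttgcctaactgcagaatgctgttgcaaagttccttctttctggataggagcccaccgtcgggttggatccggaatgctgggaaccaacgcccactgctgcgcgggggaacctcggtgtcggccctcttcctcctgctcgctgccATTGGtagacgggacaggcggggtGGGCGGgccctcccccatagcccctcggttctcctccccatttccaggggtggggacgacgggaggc

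Gpc4 and Nid1 had 18 and 16 CG pairs in this stretch and 1 GC box each, and Nid1 also had 1 CCAAT box. Ogn had 4 CG pairs, 3 E-boxes and 2 TATA box matches, which overlap on opposite strands, and no GC box. Promoter entries were found for 30 of the 49 matrix genes, 37 entries in all, with a median of 8 CG pairs against 6 over the 32851 entries of the RefSeq table. A GC box was in 51.4% of the matrix entries and 32.7% of all entries, a CCAAT box in 27% and 33.8%, a TATA box in 18.9% and 12.4%, and an E-box in 64.9% and 66.2%. A match is a description of the letters.

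Small leucine-rich proteoglycans, which bind collagen fibrils and set their diameter, had 5 of 6 log2 fold changes below 0, as did 58% of all genes, with a median of -0.27. Ogn, osteoglycin, was at 2.25, 2.34 and 2.81 in the dorsal and at 1.84, 2.06 and 2.00 in the ventral arrays. Its groups did not overlap, with a log2 fold change of -0.50 ± 0.19 (SE, 95% interval -0.96 to -0.03, adjusted p = 0.480 in limma). It had the lowest mean of the matrix genes, below the median of the receptor genes. Lum, lumican, was at 4.42, 3.33 and 3.77 in dorsal and 3.08, 3.34 and 3.39 in ventral arrays, a log2 fold change of -0.57 with an interval from -1.29 to 0.15. Dorsal array 1 stood highest, dorsal array 2 lay among the ventral values, and without both arrays of number 1 the log2 fold change of Lum was -0.18. Dcn, decorin, had a log2 fold change of -0.38 that came from 1 array: dorsal array 2 was at 3.66 and the other 5 arrays between 2.41 and 2.67. Without both arrays of number 2 it was 0.01. Prelp (-0.15), Fmod, fibromodulin (-0.13), and Bgn, biglycan (0.04), had intervals that included 0.

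Among adhesive and matricellular glycoproteins, Sparcl1 and Sparc, which share their calcium-binding and collagen-binding domains, had log2 fold changes of opposite sign; the difference between them was not tested. Sparcl1 was at 3.22, 2.88 and 2.83 in the dorsal and at 2.47, 2.42 and 2.50 in the ventral arrays. All dorsal arrays were above all ventral arrays. The ventral arrays lay close together (SD 0.037 against 0.21, n = 3 each), all below the receptor gene median of 2.59. Its log2 fold change was -0.51 ± 0.18 (SE), a 1.43-fold higher dorsal mean, with an interval from -0.96 to -0.07 and an adjusted p of 0.465 in limma. Sparc, also called osteonectin, was at 4.22, 3.68 and 4.44 in dorsal and at 6.30, 4.62 and 4.22 in ventral arrays. Its log2 fold change of 0.94 was the highest of the matrix genes and rested on ventral array 1, without which it was 0.31. The interval of Sparc ran from -0.11 to 1.98.

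Fn1, fibronectin, the main adhesive protein of embryonic connective tissue, had a dorsal mean of 3.62 ± 0.52 and a ventral mean of 3.54 ± 0.32 (SD, 3 arrays each). Its array values crossed, with dorsal array 1 highest at 4.17 and dorsal array 3 lowest at 3.15. Tnc, tenascin C, stayed within 3.62 to 3.96 and had a log2 fold change of 0.08. The thrombospondins Thbs1 and Thbs2, which bind cells and latent growth factors, had 0.25 and -0.11. Vtn, vitronectin, an adhesive plasma protein, had -0.27, Postn, periostin, -0.09 and Svep1, a large adhesion protein of lymphatic development, -0.0048. Svep1 lay within 2.88 to 2.98 on all 6 arrays.

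Ventral array 1 also held the highest value of Loxl2, and of the neural markers Sox2, Nes and Pax6 had their highest value on the same array. Loxl2, a lysyl oxidase of basement membrane collagen, was at 5.90 in ventral array 1, at 3.00 and 2.86 in ventral arrays 2 and 3, and at 3.86, 3.32 and 2.66 in the dorsal arrays. Its log2 fold change of 0.64 became -0.35 without that array. The mean signal of the 9 measured neural markers was 4.17 in ventral array 1 and 3.22 to 3.52 in the other 5 arrays. On ventral array 1 Sox2, a factor of neural progenitors, was at 7.61 and between 2.20 and 2.73 elsewhere, and Nes, nestin, was at 5.29 against 3.30 to 4.06 elsewhere. The mean of the other 7 markers was 3.52 on ventral array 1 and 3.28 to 3.67 on the other 5 arrays, so the list without Sox2 and Nes, a choice made after seeing the data, was not raised there. The part of Sox2, Nes and Pax6 in the values of Sparc and Loxl2 was not tested.

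The other lysyl oxidases, which oxidise lysines of collagen and elastin, did not share a direction. Loxl1, needed to maintain elastic fibres, was at 3.67, 2.91 and 3.72 in the dorsal and at 2.97, 2.86 and 2.84 in the ventral arrays. Dorsal arrays 1 and 3 stood above the ventral arrays and dorsal array 2 among them, and the log2 fold change was -0.54 (95% interval -1.09 to 0.0076). Loxl3, which acts in skeletal and muscle attachment development, was at 2.99, 3.05 and 3.26 in dorsal and at 2.79, 2.41 and 2.81 in ventral arrays. Its groups did not overlap, and the log2 fold change was -0.43 ± 0.18 (SE, interval -0.88 to 0.02, adjusted p = 0.495 in limma). Lox itself was at 2.87, 2.60 and 2.70 against 2.93, 2.71 and 3.16, higher on the ventral side in all 3 pairs of equal number but overlapping between the groups, with a log2 fold change of 0.21.

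**Figure D3:**
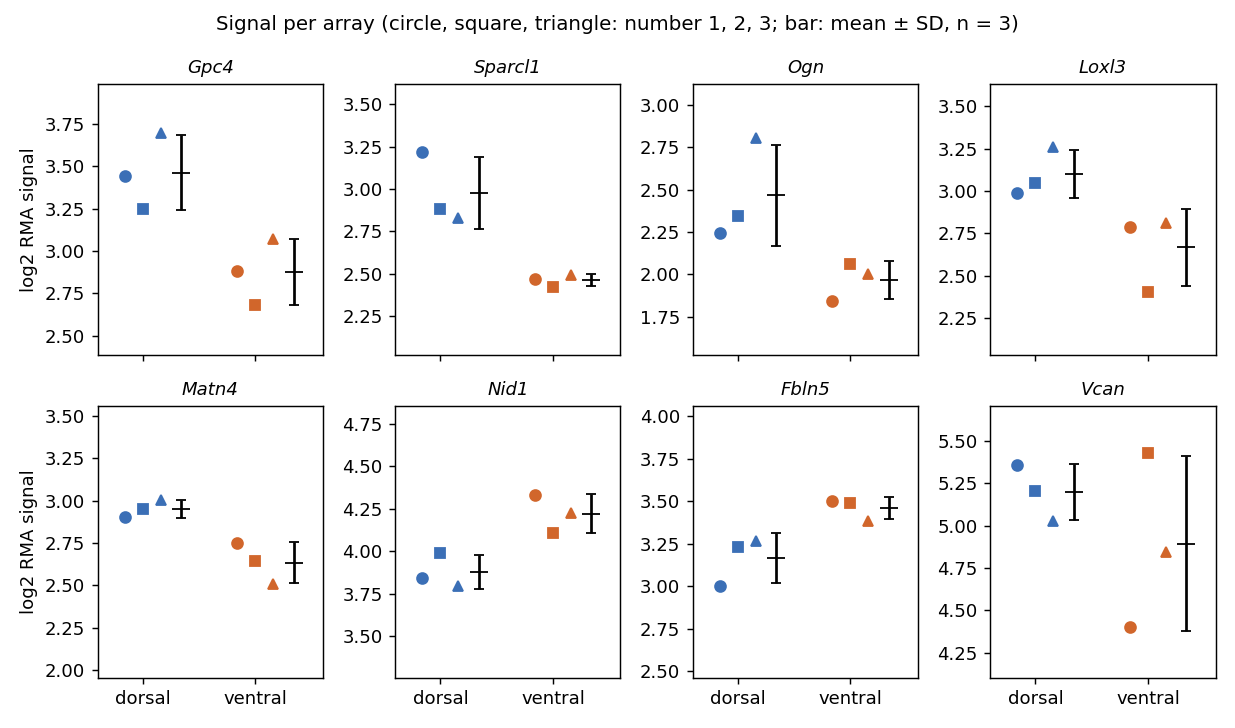
Log2 RMA signal on each array for the 7 matrix genes whose dorsal (blue) and ventral (orange) arrays did not overlap, and for Vcan; circle, square and triangle are arrays 1, 2 and 3, and the bar is the mean ± SD (n = 3). The vertical scale differs between panels; Gpc4, Sparcl1, Ogn, Loxl3 and Matn4 are higher on all dorsal arrays, Nid1 and Fbln5 on all ventral arrays.

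Cartilage-type matrix genes and the large aggregating proteoglycans had small differences. Vcan, versican, a chondroitin sulphate proteoglycan of embryonic mesenchyme, had 5.35, 5.21 and 5.02 in dorsal and 4.40, 5.43 and 4.84 in ventral arrays. Ventral array 1 was lowest and ventral array 2 highest of all 6, and the log2 fold change was -0.30 with an interval from -0.95 to 0.34. It was 0.02 without both arrays of number 1 and -0.57 without ventral array 2. Matn4, a matrilin that bridges matrix filaments, was at 2.90, 2.95 and 3.00 in dorsal and 2.75, 2.64 and 2.51 in ventral arrays. These did not overlap, with a log2 fold change of -0.32 and an interval from -0.75 to 0.11. Matn1, the cartilage matrilin, was at 3.60 in dorsal array 1 and between 2.37 and 3.18 elsewhere. Acan, aggrecan, the main proteoglycan of cartilage, lay within 2.41 to 2.59 on all arrays, a signal below the receptor median. Hapln1, the link protein that ties versican and aggrecan to hyaluronan, had a log2 fold change of 0.16, and Cnmd, chondromodulin, -0.15.

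Markers of sclerotome and early cartilage had a higher mean signal on the dorsal arrays. Of 15 measured markers 12 had log2 fold changes below 0 (58% of all genes), and 4 were higher in every dorsal array (12% of all genes). Their mean signal ran from 4.05 to 4.13 in the dorsal and from 3.71 to 3.84 in the ventral arrays. The mean over all genes also did not overlap, at 3.37 to 3.39 in dorsal and 3.32 to 3.36 in ventral arrays. Twist1, a mesenchymal transcription factor, was at 6.62, 6.37 and 6.57 in dorsal and 4.20, 5.71 and 5.46 in ventral arrays, with its lowest value on ventral array 1, as for Vcan. Pax1, a defining gene of sclerotome, did not separate the regions, at 2.93, 4.31 and 3.11 in dorsal and 3.48, 3.40 and 3.39 in ventral arrays. The part of these markers in the values of Gpc4, Sparcl1, Ogn, Loxl3 and Matn4 was not tested.

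Basement membrane genes had 1 gene that was higher on every ventral array. Nid1, nidogen 1, which links laminin to collagen networks, was at 3.84, 3.99 and 3.79 in dorsal and at 4.33, 4.11 and 4.23 in ventral arrays. The groups did not overlap, and the log2 fold change was 0.35 ± 0.18 (SE, interval -0.09 to 0.79, adjusted p = 0.545 in limma). Its paralogue Nid2 had a log2 fold change of -0.30, with 4.73, 4.03 and 3.88 in dorsal and 3.80, 3.59 and 4.33 in ventral arrays. The intervals of both nidogens included 0, and the difference between them was not tested. Hspg2, perlecan, was at 4.23, 3.89 and 4.15 against 4.30, 4.38 and 3.97, and Agrn, agrin, had a log2 fold change of -0.20.

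Laminin chains were alike in their closeness to 0: all 8 log2 fold changes lay between -0.22 and 0.22, and none of the 8 genes separated the arrays. Lamb1, the beta chain of most embryonic laminins, was at 4.78, 4.22 and 3.72 in dorsal and 4.28, 4.48 and 3.95 in ventral arrays. Its group means were both 4.24, and the interval of the difference was -0.54 to 0.54, so a 2-fold difference lies outside it. Lamc1, the gamma chain shared by most laminins, had the highest log2 fold change of the group (0.22) and Lama3, a chain of epithelial laminin, the lowest (-0.22). Lama3 was higher on the dorsal side in all 3 pairs of equal number, at 2.76, 2.99 and 3.15 against 2.70, 2.73 and 2.79. Lama5, the alpha chain of mature basement membranes, was higher on the ventral side in all 3 pairs, at 3.16, 3.34 and 3.05 against 3.31, 3.38 and 3.36. Lama1, the first alpha chain of the embryo, had 0.15, Lama4, an alpha chain of vessel walls, 0.17, Lamb2 -0.03 and Lama2, the muscle alpha chain, -0.0084. Lama2 varied from 2.85 to 2.92 over all 6 arrays, and signals this steady near the lower end of the range were not shown to be above background.

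Elastic fibre genes had a positive median log2 fold change of 0.21, with 6 of 8 above 0, as were 42% of all genes. Fbln5, a fibulin needed for elastic fibre assembly, was at 3.00, 3.23 and 3.27 in dorsal and at 3.50, 3.49 and 3.38 in ventral arrays. Its ventral arrays were all above its dorsal arrays, with a log2 fold change of 0.29 and an interval from -0.15 to 0.73. Emilin1, a glycoprotein at the interface of elastin and microfibrils, was at 2.98, 2.57 and 2.80 in dorsal and 3.24, 3.29 and 2.93 in ventral arrays. Ventral array 3 lay below dorsal array 1, and the log2 fold change was 0.37 (interval -0.11 to 0.86). Eln, elastin, was at 4.02, 2.76 and 3.53 in dorsal and 3.61, 3.90 and 3.92 in ventral arrays. Its log2 fold change of 0.37 rested on dorsal array 2, and it was -0.01 without both arrays of number 2. Mfap2, a small microfibril protein, was at 4.03, 4.81 and 4.52 against 4.85, 4.55 and 5.03 (log2 fold change 0.36, and 0.15 without dorsal array 1), and Mfap4 had 0.14. Fbln2 lay within 4.05 to 4.26, Fbln1 had a log2 fold change of -0.18, and Fbn2, the fibrillin of embryonic microfibrils, -0.20. None of these passed the test, and their adjusted p in limma lay between 0.551 and 0.944.

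The matrix genes varied more among dorsal than among ventral arrays, as did genes in general. The median SD of the matrix genes was 0.22 between dorsal arrays and 0.17 between ventral arrays, against 0.26 and 0.18 for all genes. Over all genes, the signals of dorsal arrays correlated by 0.81 to 0.83 with each other and by 0.82 to 0.85 with ventral arrays. Those of ventral arrays correlated by 0.89 to 0.90 with each other. Dorsal array 1 held the highest of the 6 values in 15 matrix genes, or 30.6%, where it held the highest value in 18.2% of all genes. Nid2, Lum, Gpc6, Matn1, Fn1 and Lamb1 were among these. Dorsal array 3 held the lowest value in 13 matrix genes, or 26.5%, and dorsal array 2 in 11, or 22.4%, against 17.2% of all genes on each. Between arrays of 1 region the mean of the 49 signals ran from 3.29 to 3.52 in dorsal and from 3.36 to 3.41 in ventral tissue, so the dorsal range enclosed the ventral one.

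**Figure D4:**
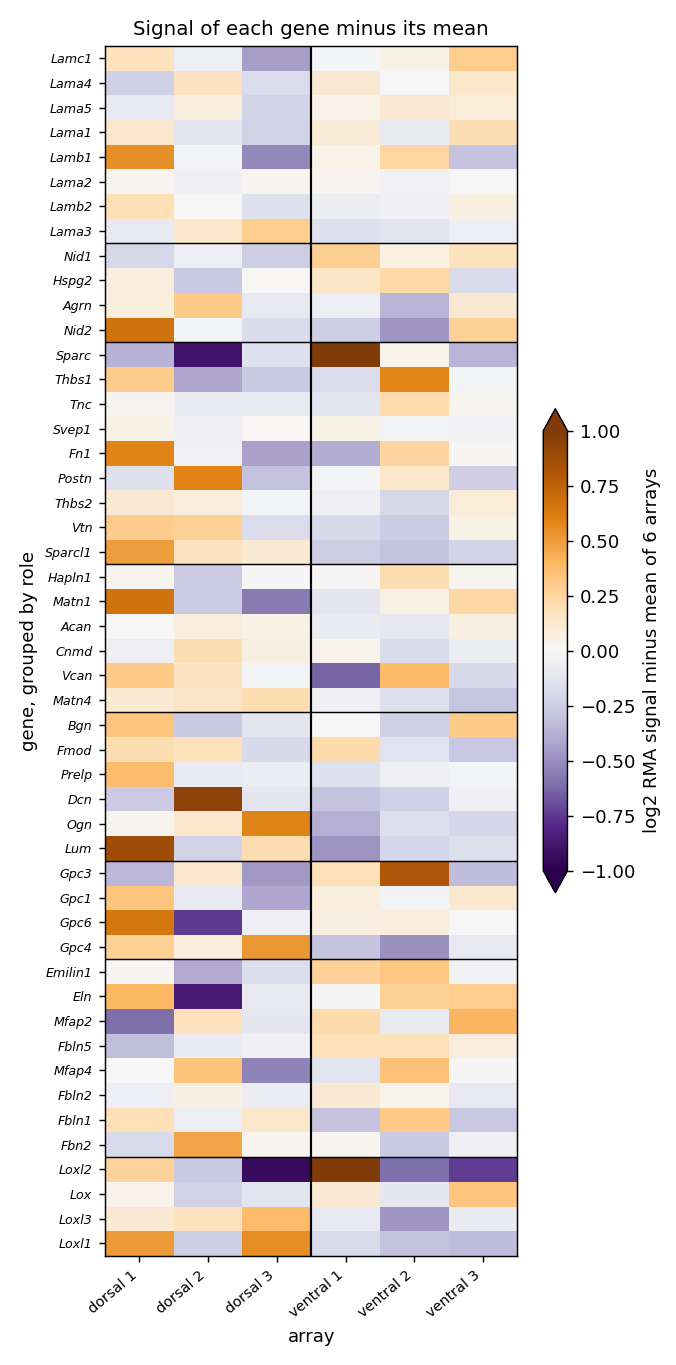
Log2 RMA signal of each matrix gene on each array minus its mean over the 6 arrays; rows are grouped by role, colours are capped at -1 and 1, and the vertical line parts dorsal from ventral arrays. Ventral array 1 stands out for Sparc and Loxl2, dorsal array 2 for Dcn, Eln and Sparc, and dorsal array 1 for Lum, Nid2 and Matn1.

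Other genes of the matrix and its receptors also had 0 calls after adjustment, here in lists with no gene in common with the 49. At an unadjusted p under 0.05, 10.2% of all genes passed, and the counts of 0 to 2 genes in each list are to be read against that share. Among 12 integrins 1 passed an unadjusted p of 0.05, Itgb1, the beta chain shared by most matrix receptors. Itgb1 was at 3.34, 3.78 and 3.37 in dorsal and 3.65, 5.03 and 3.66 in ventral arrays, so ventral array 2 stood apart and the groups overlapped (adjusted p = 0.488 in limma). Itgb8 had a log2 fold change of 0.46. Of 9 further laminin chains and laminin receptors none passed, with 0.38 for Bcam, a receptor of Lama5, and -0.34 for Dag1, dystroglycan.

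Of 17 matrix proteases and inhibitors 2 passed the unadjusted level, both dorsal-higher: Mmp16, a membrane-bound metalloproteinase (-0.63), and Timp2, an inhibitor of these enzymes (-0.88). Timp2 was at 3.92, 3.91 and 5.43 in dorsal and 3.13, 3.83 and 3.65 in ventral arrays. It rested on dorsal array 3, without which the log2 fold change was -0.38 in a fit with no block, and with all 6 arrays its unadjusted p without the block was 0.0727 in limma. Of 18 further glycoproteins Tnxb, tenascin X, was ventral-higher (0.48) and Spock1, testican 1, dorsal-higher (-0.54). Of 16 further elastic fibre and Lox family genes Efemp1, a fibulin, was dorsal-higher (-0.66) and Mfap1a ventral-higher (1.13). Mfap1a bears the name of a microfibril protein but encodes a spliceosome component. None of 24 further proteoglycans, link proteins and matrilins passed, with -0.43 for Hapln2 and -0.44 for the hyaluronan receptor Cd44, and none of 22 collagens, with -0.40 for Col5a1 and -0.42 for Col11a2. The median log2 fold changes of these 7 lists lay between -0.09 and 0.10, against -0.06 over all genes.

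Markers of other tissues that the pieces can hold were checked with the same values. The list means overlapped between dorsal and ventral arrays for notochord, smooth muscle, erythroid, coelomic epithelium, neural and macrophage markers. Endothelial markers had a mean of 3.37 to 3.49 in dorsal and 3.19 to 3.36 in ventral arrays. The mean over all genes was 3.37 to 3.39 and 3.32 to 3.36. Of the 16 endothelial markers 6 had log2 fold changes above 0 and 10 below. Only 1 was higher in every dorsal array (12% of all genes). This was Plvap, at 3.83, 3.67 and 4.27 in dorsal and 3.08, 2.81 and 2.88 in ventral arrays. How far the list mean rested on Plvap was not tested. Gut and liver markers had a mean of 3.41 to 3.52 in dorsal and 3.57 to 3.68 in ventral arrays. Of the 12 gut and liver markers 6 had log2 fold changes above 0 (42% of all genes) and 6 below (58%). The list mean followed Serpina1b, an alpha-1-antitrypsin gene (log2 fold change 1.48), without which, a choice made after seeing the data, it was 3.50 to 3.62 in dorsal and 3.49 to 3.61 in ventral arrays. In this list 2 genes were higher in every dorsal array (12% of all genes) and 4 in every ventral array (6.74%). Afp and Epcam, markers of endoderm and epithelium, were the dorsal-higher ones. Foxa3 (log2 fold change 0.53), Cldn6 (0.55), Ttr (0.20) and Serpina1b were the ventral-higher ones. The notochord gene Noto was at 3.48 to 4.47 in dorsal and 3.61 to 3.98 in ventral arrays and did not separate the regions. Its values all lay below the 95th percentile of the receptor genes, 4.66, so they do not show how much notochord a piece held. Pecam1, an endothelial adhesion molecule, stayed between 2.65 and 3.21 on all arrays, and Myh11, the myosin of mature smooth muscle, between 2.61 and 3.02.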

How the data were processed

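The authors deposited 1 log2 value per probe set and array for 25429 probe sets. They were made with Affymetrix Expression Console and RMA (versions not stated), per the submitters' processing notes. The log base was taken from the values (0.971 to 12.9), and the probe set definition and genome build are not given in the sources used here. Of the probe sets 24675 had 1 gene symbol, 0 had several and 754 were unnamed. The regions were compared with limma 3.58.1 (R 4.3.3; lmFit, eBayes, two-sided, Benjamini-Hochberg over 24675 genes) with the replicate number as a block, because both regions came from the same embryos. The labels do not say that equal numbers mark the same embryo, and deviations from the group means correlated by only 0.04, -0.01 and 0.06 between arrays numbered 1, 2 and 3 across genes, so an unblocked fit was run as an alternative. The p-values reflect only the spread among these 6 arrays, and the number of arrays limits the precision. Other alternatives were cyclic loess, median centring, filters on dim genes, an intensity trend, array weights, all probe sets, and leaving out arrays.

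Values on every array were given for genes with a mean above 5, an unadjusted p under 0.05 or groups that did not overlap; those of other genes were added after their values had been seen. The genes and lists were chosen with earlier results of these data known, and the receptor gene comparison was also added after seeing the data. Promoter sequences are from RefSeq (GRCm38.p6).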

Additional observations from a re-analysis of the deposited data

How the results depend on the processing

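No matrix gene passed an adjusted p of 0.05 in limma under any alternative, with 0 called in each, including the fit with no replicate block and those that left out arrays. With no replicate block 4 genes had an unadjusted p under 0.05 (Loxl3 joined the 3), and the count of genes whose arrays did not overlap stayed 7. Across the other settings the unadjusted count, 3 in the report, was 1 after cyclic loess (Gpc4), 1 without genes under the 25th percentile of mean signal (Gpc4), 0 without genes under the median and 5 with an intensity trend. After median centring it was 3, but the genes were Sparcl1, Gpc3 and Gpc4: Ogn no longer passed and Gpc3 passed as ventral-higher. Sparcl1 and Ogn lie below the 25th percentile of mean signal, so the fit without genes under it left them out by construction. Without genes under the median 2 genes had arrays that did not overlap and the median log2 fold change was 0.084; Gpc4, Sparcl1, Ogn, Loxl3 and Matn4 lie below that limit and were left out by construction. When arrays were left out, by number or singly in fits with no block, the unadjusted count ran from 2 to 7 (highest without dorsal replicate 1), the non-overlapping count from 9 to 25 (highest without both arrays of number 1; fewer arrays overlap less often by construction) and the median from -0.12 to 0.064. Gpc4, Sparcl1, Ogn, Loxl3, Matn4, Nid1 and Fbln5 kept their direction in all these fits. Directions near 0 turned with the scaling: after cyclic loess the log2 fold change was 0.051 for Lama2, 0.0071 for Lamb2, 0.0027 for Postn, 0.031 for Acan and 0.053 for Svep1, and after median centring 0.035 for Lama2, 0.043 for Lamb1, 0.016 for Lamb2 and 0.039 for Svep1. With arrays left out, 24 genes changed sign, with log2 fold changes ranging from -0.031 to 0.0051 for Lama2, from -0.26 to 0.27 for Lamb1, from -0.15 to 0.090 for Lamb2, from -0.039 to 0.42 for Lamc1, from -0.68 to 0.0057 for Nid2, from -0.053 to 0.29 for Hspg2, from -0.40 to 0.038 for Agrn, from -0.34 to 0.37 for Fn1, from -0.023 to 0.20 for Tnc, from -0.27 to 0.18 for Postn, from -0.12 to 0.62 for Thbs1, from -0.57 to 0.021 for Vcan, from -0.15 to 0.23 for Bgn, from -0.61 to 0.014 for Dcn, from -0.24 to 0.033 for Prelp, from -0.10 to 0.31 for Gpc1, from -0.27 to 0.44 for Gpc6, from -0.23 to 0.56 for Matn1, from -0.013 to 0.76 for Eln, from -0.40 to 0.073 for Fbn2, from -0.026 to 0.10 for Fbln2, from -0.10 to 0.34 for Mfap4, from -0.35 to 1.17 for Loxl2, from -0.033 to 0.020 for Svep1. Low signal over background, for which no detection value was used, limits what these arrays can show.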
